A study of Mus musculus with 21 samples.

Results

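The loss of JNK1 was compared between the skin and the epididymal fat of mice kept on a high fat diet, by asking for each gene whether the knockout effect in skin differed from that in fat. JNK1, encoded by Mapk8, is a stress-activated kinase of the MAPK family that phosphorylates c-Jun, a subunit of the transcription factor AP-1. In obese fat, JNK activity in adipocytes and macrophages is known for its part in inflammation and insulin resistance. Skin holds hair follicles, which alternate between growth and rest and make hair keratins and keratin-associated proteins while they grow.

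The quantity followed here is the skin-minus-fat difference, that is, knockout (KO) minus wild type (WT) in skin, less KO minus WT in fat, on the log2 scale. A positive value means that KO stood further above WT, or less far below it, in skin than in fat. It was computed for 12683 of 27561 gene names on the array, those whose probe was well above background on at least 3 skin arrays and on at least 3 fat arrays. The skin condition alone was met by 13521 gene names and the fat condition alone by 15330. The comparison used 15 of the 21 arrays of the series, with 4 JNK1 Knock-out and 3 wild type skin arrays, and 4 of each genotype in fat. All were from male C57Bl6/J mice of 45 weeks that had received a high fat diet from week 5 to week 44, so no group on another diet enters the comparison. RNA (0.2 ug) was labelled with Cy3 and hybridised to 1-colour Agilent arrays, on which a probe's brightness reports the transcript's level. The series text speaks of quadruplicates, whereas 3 WT skin arrays were analysed here. The labels do not say how the allele was made, in which cells JNK1 was lost, or which arrays share a mouse, so the p-values measure only the spread between these samples, which may be technical.

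The labelled tissues carried their defining transcripts. Krt5, Krt14, Krt1, Krt10 and Lor marked the skin arrays, and Upk3b, a marker of the mesothelium that covers visceral fat, was between 8.78 and 10.82 on fat arrays and between 5.47 and 6.22 on skin arrays. Adipocyte transcripts such as Adipoq, Plin1 and Cidec were abundant in fat and also in skin. Between 38.9% and 57.2% of probes were well above background on an array. Skin KO 1, skin WT 1 and fat KO 4 correlated least with their own groups (r across probes from 0.951 to 0.972), and values without these arrays are given beside the lists and genes that moved most with them. No slide of the 6 held all 4 groups, so the difference could not be computed within a slide. In a fit with slide as a block, skin KO was linked to the other groups only through the slide it shared with fat KO 1. Skin KO 2 and skin KO 3 were on a slide without another compared group, and fat WT 2 was alone on its slide. Every value given with slide as a block therefore hangs on the single array fat KO 1. The scanner file of fat WT 2 correlated with its own column of the deposited value table at r = 0.779 and with skin columns at 0.884 to 0.904, against at least 0.972 between file and column for the other 14 arrays. That file was not used, and the value table's column for fat WT 2 was kept.

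Mapk8 itself had a lower mean in KO in both tissues on its brightest probe. Its brightest probe (chr14:34204748-34204807, mm9) read 5.90, 5.80, 4.88 and 5.19 in skin KO and 5.72, 6.76 and 6.92 in skin WT. In fat it read 5.62, 5.97, 5.81 and 5.38 in KO and 8.0, 7.65, 7.84 and 7.88 in WT. The genotypes were thus apart in fat, where KO minus WT was -2.15, and overlapped in skin, where the probe was well above background on 2 of 3 WT arrays and on 0 of 4 KO arrays. Mapk8 therefore did not enter the 12683 genes. Mapk9, which encodes the sister kinase JNK2, had a skin-minus-fat difference of 0.19 (SE 0.28, unadjusted p = 0.507), and Mapk10, the JNK3 gene, did not pass the background condition.

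Around Mapk8, the kinases and regulators of the pathway had differences from -0.73 to 1.35. Of 25 listed JNK pathway components, 21 were compared, and 9 had a positive and 12 a negative difference, with a median of -0.10 against -0.01 over all genes, of which 49.1% were positive. Unadjusted p was below 0.05 for 0 positive and 3 negative members, where 5.25% of all genes were positive and 7.02% negative at that level. The 3 were Map3k4, a kinase upstream of JNK (-0.67), Dusp1, the phosphatase that inactivates JNK and p38 (-0.73), and the scaffold Mapk8ip3 (-0.55). Dusp1 read 9.03, 9.61, 9.57 and 9.73 in skin KO against 10.45, 9.83 and 10.11 in skin WT, and between 9.06 and 9.77 on every fat array. Its genotypes did not overlap in skin and overlapped in fat.

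The AP-1 subunits and other immediate-early genes, which are transcribed within minutes of a stimulus, showed no common direction. Among 25 compared of 27 listed, 10 differences were positive and 15 negative (median -0.13). Jun itself differed by 0.14 (SE 0.21) and Fos by -0.05 (SE 0.30). Ier3 (1.31), Junb (0.72) and Klf2 (-0.84) had an unadjusted p below 0.05 in limma, as did 12.3% of all genes. Ier3, an early response gene linked to survival under stress, read 9.70, 8.96, 9.02 and 8.88 in skin KO and 7.74, 8.50 and 8.93 in skin WT, so that a single KO array lay within the WT range.

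Across all 12683 genes, 0 (0%) passed an adjusted p of 0.05 for the skin-minus-fat difference in limma (Benjamini-Hochberg over all genes). The smallest adjusted p was 0.0918, shared by 15 genes, and 29 genes were below 0.2. At an unadjusted p below 0.05 there were 1556 genes (12.3%), of which 666 were positive and 890 negative. Of these 1556, 607 (39%) had a higher mean in skin KO with a lower one in fat KO, and 870 (55.9%) had the reverse. A further 40 were higher and 39 lower in KO in both tissues. Over all genes those 4 patterns held 23.8%, 29.5%, 22.4% and 24.3%. Choosing genes by a large difference between the effects favours opposite signs, so these shares do not show opposite action of the knockout. Without overlap of single arrays in either tissue, 30 genes (0.237%) were higher in skin KO and lower in fat KO, and 39 (0.307%) the reverse. In the same direction, 16 genes (0.126%) were higher and 25 (0.197%) lower in KO in both tissues without overlap. Taken singly, skin KO and WT did not overlap for 4.2% of genes with KO higher and 5.76% with KO lower, and fat KO and WT for 3.99% and 3.05%. The count of adjusted calls moved with the arrays and the fit, from 0 to 15 on leaving out single arrays and to 114 (59 positive and 55 negative) with each array weighted by its quality. It was 1 without the 3 arrays that correlated least with their groups, and the gene was Anxa8 (limma adjusted p = 0.0308).

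**Figure D1:**
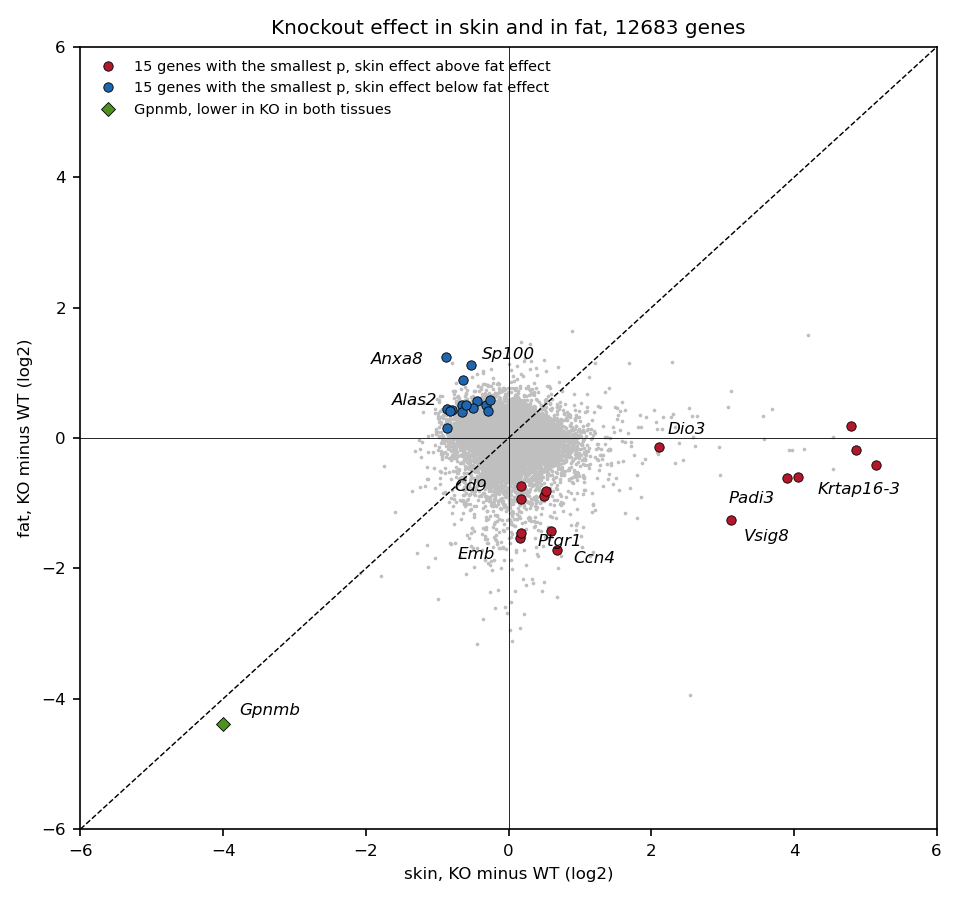
Knockout effect in fat (vertical axis, KO minus WT, log2) against that in skin (horizontal axis, same unit) for 12683 genes, 1 point a gene, with the dashed line where both effects are equal. The 15 positive named genes lie below the line, either far to the right (Krtap16-3 at 5.15 in skin) or below 0 in fat (Emb at -1.54), the 15 negative ones lie above it, and Gpnmb (diamond) lies near the line at -4.0 in skin and -4.38 in fat.

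The genes that led the positive side fell into those that differed in skin and those that differed in fat. Of the 15 with a gene symbol and the smallest p (2 rows without a symbol had a p as small), 7 rose in skin KO with an adjusted p below 0.05 within skin (Krtap16-3, Krtap19-1, Krtap3-1, Krtap5-4, Vsig8, Padi3 and Dio3). A further 5 fell in fat KO by the same threshold within fat (Emb, Ptgr1, Ccn4, Cd9 and Hspbap1), and Mical2, Basp1 and Chn2 passed in neither tissue. Dio3 and Ccn4 met the background condition in skin through KO arrays alone, where they were higher, so their place among the 15 supports nothing by itself. Within skin, limma called 17 genes higher (0.134%) and 1 lower (0.00788%) in KO, and within fat 1 higher (0.00788%) and 13 lower (0.102%). At an unadjusted p below 0.05 these were 12.4% of genes in skin and 9.28% in fat.

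Of the 18 genes called within skin, 7 encode keratin-associated proteins, the matrix in which hair keratin filaments are embedded. Their promoters are shown because the leading differences come from this family, and because TATA boxes and AP-1 sites can be looked for in them. Each window of 120 bases is from RefSeq (GRCm38.p6), 5′ to 3′ on the gene's strand, with TATAAA on either strand and the AP-1 motif TGANTCA in capitals. The windows are chr16:88962874-88962993 (minus strand) for Krtap16-3, chr16:88869411-88869530 (minus) for Krtap19-1, chr11:99566631-99566750 (minus) for Krtap3-1 and chr7:142303382-142303501 (plus) for Krtap5-4.
Krtap16-3: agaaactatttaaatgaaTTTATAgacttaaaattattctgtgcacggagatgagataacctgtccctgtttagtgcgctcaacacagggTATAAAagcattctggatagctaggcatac
Krtap19-1: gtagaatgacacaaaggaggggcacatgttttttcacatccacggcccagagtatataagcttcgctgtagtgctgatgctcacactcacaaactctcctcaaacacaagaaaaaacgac
Krtap3-1: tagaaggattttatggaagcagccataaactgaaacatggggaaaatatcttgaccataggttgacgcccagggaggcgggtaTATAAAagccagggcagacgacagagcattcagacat
Krtap5-4: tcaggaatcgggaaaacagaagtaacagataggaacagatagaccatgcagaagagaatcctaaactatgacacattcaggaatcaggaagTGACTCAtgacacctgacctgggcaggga

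In the 250 bases before the start, TATAAA stood in 19 of the 26 hair follicle genes with a window (73.1%), against 8.59% of the 9445 compared genes with one and 12.4% of all 32851 windows. TGANTCA, which is its own reverse complement, stood in 1 of the 26 (3.85%), against 5.73% of compared genes and 6.75% of all windows. Of the 15 positive genes, 14 had a window, and TGANTCA stood in 1 of these (7.14%), that of Krtap5-4. TATAAA stood in 3 of the 14 (21.4%). Of the 15 negative genes, 12 had a window, with TGANTCA in 0 and TATAAA in 3 (25%). These are matches of letters, and binding was not measured.

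Krtap16-3 had the greatest difference among the named genes. It read 17.94, 15.80, 17.42 and 15.39 in skin KO against 9.75, 13.22 and 11.49 in skin WT (probe chr16:88962906-88962965, mm9). In fat it lay between 4.57 and 5.57 in both genotypes and was well above background on 1 KO and 2 WT arrays. The skin genotypes did not overlap, the fat genotypes did, and the skin-minus-fat difference was 5.56 (SE 0.93, unadjusted p = 3.25e-05, limma adjusted p = 0.0918). The skin KO arrays were spread in pairs, with KO 1 and KO 3 above KO 2 and KO 4.

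Padi3, which citrullinates trichohyalin in the follicle, was also higher in KO 1 and KO 3 than in KO 2 and KO 4. It read 14.30, 12.74, 14.69 and 12.09 in skin KO and 8.63, 10.96 and 9.05 in skin WT, with 4.71 to 6.57 on fat arrays. Its difference was 4.52 (SE 0.85, limma adjusted p = 0.0918). Krtap3-1 read 14.04, 12.12, 14.27 and 11.88 in skin KO and 8.26, 10.15 and 8.67 in skin WT, a difference of 4.65 (SE 0.81). For both genes skin WT 2 was the highest WT array and stayed below every KO array.

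Vsig8, an immunoglobulin-domain membrane protein found in hair, was the only gene of this group whose genotypes were also apart in fat. It read 11.34, 9.71, 10.99 and 8.71 in skin KO and 7.03, 7.59 and 6.59 in skin WT. In fat it read 6.47, 7.11, 7.08 and 6.90 in KO and 7.20, 8.46, 8.55 and 8.35 in WT. KO was thus higher in skin and lower in fat without overlap, and the difference was 4.37 (SE 0.71, unadjusted p = 2.20e-05).

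Dio3, the deiodinase that inactivates thyroid hormone, read 7.57, 6.47, 8.31 and 6.81 in skin KO. It was not well above background on any skin WT array (4.82, 5.61 and 5.11). On the deposited values its mean in skin KO was at least 4.03-fold that of WT. Such a bound sets the WT level at the lowest signal well above background on each array, or at the probe's own value where that is higher. The bound does not allow for the spread between arrays or for another scaling of the values. On fat arrays Dio3 lay between 5.75 and 6.29 with the genotypes mixed, and its difference was 2.24 (SE 0.46), or 1.44 and 3.44 with the scanner values corrected by normexp or scaled to the 75th percentile.

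Most hair follicle genes had a higher mean in skin KO and were near background in fat. Only 6 of the 34 on the array (40 listed) met the background condition in both tissues. These 6 were positive, 4 of them with an unadjusted p below 0.05 (median 2.44), and some met the condition in skin largely through KO, as Lef1 did on 4 KO and 1 WT arrays, so the count supports nothing by itself. Beside Krtap3-1 and Padi3, the 4 were S100a3, a calcium-binding protein of the hair cuticle (3.24), and Lef1, a transcription factor of the WNT pathway that directs hair differentiation (1.64). Sox9 (0.01) and Gata3 (0.67), which the follicle shares with other epithelia, were the other two, and Gata3 had a lower mean in skin KO (-0.49). Where every array had to be well above background, Sox9 and Gata3 alone were left, with a median of 0.34. Without the background condition, 33 of 34 were positive and 25 had an unadjusted p below 0.05, as did 1085 positive of all 27561 gene names. Their median KO minus WT was 3.63 in skin and -0.15 in fat. The summed level of the list was 18.32 to 20.42 on skin KO arrays and 15.58 to 17.02 on skin WT arrays. Leaving out skin KO 1, skin WT 1 and fat KO 4 lowered the median of the 6 to 1.97 and Krtap16-3 to 4.23. The calls within skin depended on single arrays: 0 genes passed in limma without those 3 arrays, 0 were called higher without skin WT 1 or without skin WT 3, 6 without skin KO 1, 4 without skin KO 3 and 32 without skin KO 4. In a piece of tissue, fewer cells of a type and less RNA per cell cannot be told apart, and this holds for every cell type named here.

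**Figure D2:**
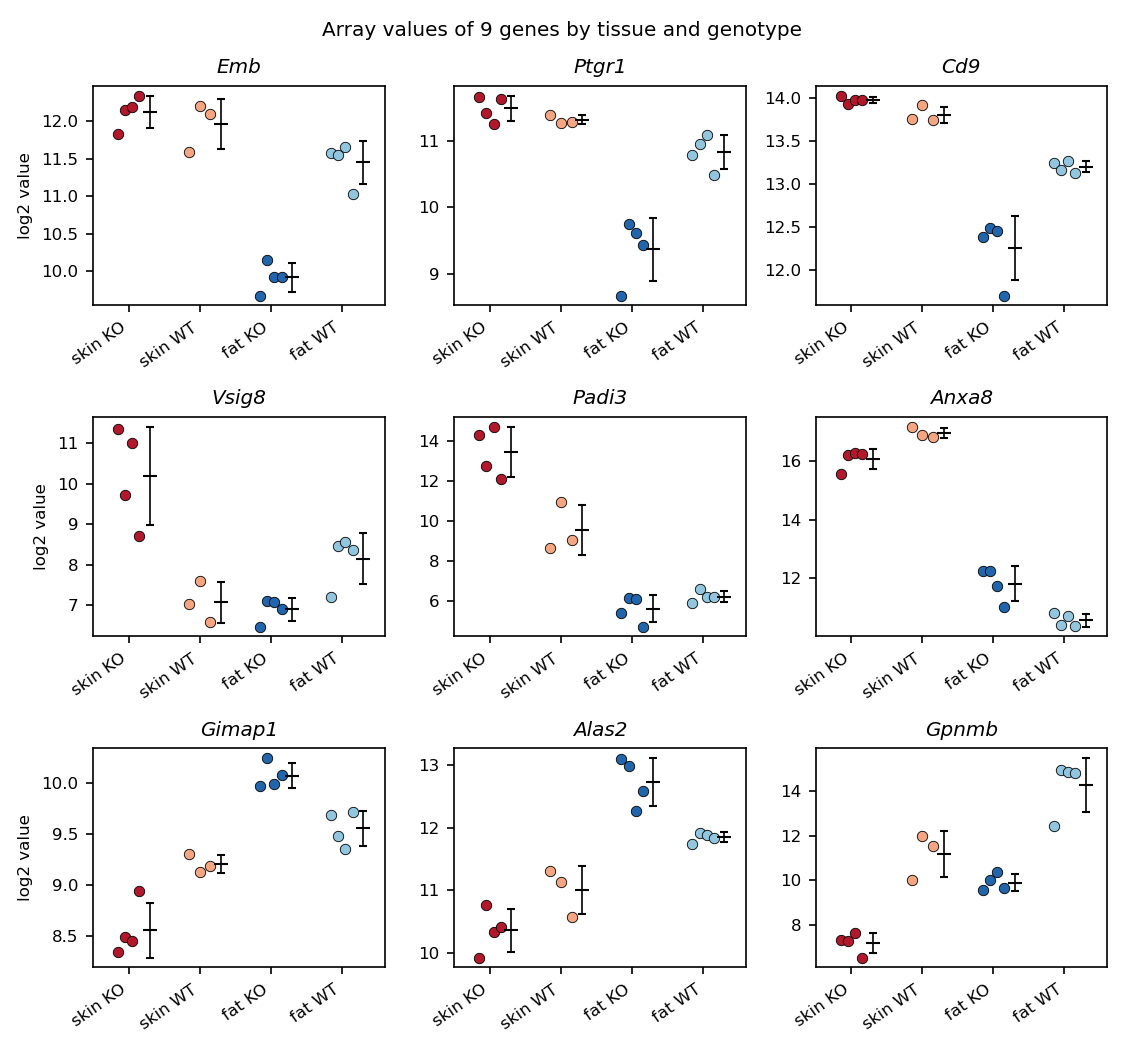
Level of 9 genes (log2 of the deposited value, vertical axis) on each of the 15 arrays, by tissue and genotype, where points are arrays and the dash with its bar is the mean ± SD of a group. Vsig8 and Padi3 are separated by genotype in skin, Emb, Ptgr1 and Cd9 are lower in fat KO, Anxa8 and Gimap1 are lower in skin KO and higher in fat KO, Alas2 is higher in fat KO, and Gpnmb is lower in KO in both tissues.

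Emb (embigin), a chaperone of lactate and pyruvate transporters, had the smallest p of all genes. It read 9.68, 10.15, 9.92 and 9.93 in fat KO and 11.58, 11.55, 11.66 and 11.03 in fat WT (probe chr13:118062731-118062790, mm9). In skin it read 11.83, 12.15, 12.19 and 12.33 in KO and 11.59, 12.20 and 12.10 in WT. The genotypes did not overlap in fat and overlapped in skin. Fat KO fell by 1.54 (limma adjusted p = 0.00313 within fat), and the skin-minus-fat difference was 1.70 (SE 0.27, unadjusted p = 1.58e-05, limma adjusted p = 0.0918). The gene's other probe gave 1.74.

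Ptgr1, a reductase of prostaglandins, leukotriene B4 and reactive aldehydes, was similar. It read 8.68, 9.75, 9.62 and 9.43 in fat KO and 10.79, 10.95, 11.09 and 10.49 in fat WT. Skin lay between 11.25 and 11.65 on every array, with the genotypes mixed. The difference was 1.63 (SE 0.31).

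Cd9, a tetraspanin of many cell surfaces and of lipid-associated macrophages, read 12.38, 12.49, 12.45 and 11.70 in fat KO and 13.24, 13.16, 13.26 and 13.13 in fat WT. In skin it read 14.02, 13.93, 13.97 and 13.97 in KO and 13.75, 13.91 and 13.74 in WT. KO was lower in fat and slightly higher in skin, without overlap in either, with a difference of 1.11 (SE 0.23).

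Ccn4, a secreted WNT-induced matricellular protein, read 4.77, 5.45, 5.65 and 5.19 in fat KO and 6.37, 7.23, 6.94 and 7.41 in fat WT. In skin it was well above background on 3 KO arrays and on 0 WT arrays, so its difference of 2.40 (SE 0.44) rests on a skin WT level near background. It ranged from 1.18 with normexp background correction of the scanner values to 4.2 with scaling to their 75th percentile. Hspbap1, a partner of the small heat shock protein Hspb1, was the tightest of the group. It read 6.66, 6.68, 6.70 and 6.68 in fat KO and 7.52, 7.30, 7.38 and 7.44 in fat WT, with a difference of 0.90 (SE 0.17).

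The calls within fat also depended on single arrays. Between 3 (without fat WT 3) and 63 (without fat WT 1) genes were called lower in fat KO, and 6 without the 3 arrays that correlated least with their groups. Emb, Ptgr1, Cd9 and Hspbap1 kept differences of 1.62, 1.63, 0.89 and 0.89 without those 3 arrays.

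Macrophage genes had a lower median KO minus WT in fat than in skin. Of 27 listed macrophage markers 23 were compared, and 20 were positive, with 3 positive members at an unadjusted p below 0.05 (5.25% of all genes). Their median difference was 0.59, from a median KO minus WT of -0.11 in skin and -0.46 in fat. The 3 were the lectins Clec4n (1.19) and Mrc1 (1.40), and Ms4a7 (1.14). Mrc1, the mannose receptor, read 10.17, 9.90, 8.38 and 9.33 in fat KO and 10.08, 10.45, 10.02 and 9.93 in fat WT, which overlapped. In skin it lay between 8.85 and 9.17 on every array but WT 1, at 7.07, and the difference of Mrc1 was 0.73 without skin KO 1, skin WT 1 and fat KO 4 and 0.08 with slide as a block. The summed macrophage level was 17.10 to 18.23 on fat KO arrays and 18.42 to 18.67 on fat WT arrays, without overlap, and 15.75 to 16.90 on skin arrays with the genotypes mixed.
The median difference of the list was 0.32 without fat KO 4, 0.13 without skin KO 1, skin WT 1 and fat KO 4, and 0.08 with slide as a block, where fat KO 1 is the only link of skin KO to the other groups. It was 0.31 on scanner values scaled to the 75th percentile.

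Genes of lipid-associated macrophages, which take up lipid around dying adipocytes, gave a median difference of 0.43, and 20 of 21 were positive. Unadjusted p was below 0.05 for 5 positive members, among them Cd9, Spp1, Ctsl and Ctsd, and for 1 negative (5.25% and 7.02% of all genes). The median was 0.11 with slide as a block and 0.71 without skin WT 2. Spp1 (osteopontin) read 10.04, 11.55, 11.35 and 10.07 in fat KO and 11.89, 13.08, 12.69 and 12.37 in fat WT. In skin it read 9.62, 8.40, 8.15 and 8.21 in KO and 6.05, 8.27 and 7.92 in WT. Fat was thus without overlap, and the skin side was set by WT 1, so the difference of 2.94 (SE 0.74) became 1.69 without the 3 arrays named above.

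Oxidant defence, which the series title names for skin, was uneven. Among 32 NRF2 targets and antioxidant enzymes compared, 17 differences lay above 0 and 15 below, and their median of 0.08 changed sign to -0.11 on scanner values scaled to the 75th percentile. Yet 8 positive members had an unadjusted p below 0.05, against 5.25% of all genes, and 1 negative member did, against 7.02%. The differences of the list ran from -1.27 to 1.52, so the greatest were of similar size on both sides. Gclc, the rate-limiting enzyme of glutathione synthesis, read 10.16, 9.70, 10.22 and 9.67 in skin KO and 9.21, 9.45 and 9.35 in skin WT. On fat arrays the values were 9.77, 9.90, 9.74 and 9.90 in KO and 9.96, 10.54, 10.30 and 10.23 in WT. Gclc was higher in skin KO and lower in fat KO without overlap, by 1.03 in all (SE 0.23, unadjusted p = 0.000528).

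Other redox genes with the smallest p were Txn1, thioredoxin (1.31, SE 0.32), Srxn1, which reactivates peroxiredoxins (1.52, SE 0.42), and the peroxidase Prdx1 (1.24, SE 0.42). Srxn1 read 11.51, 12.30, 12.49 and 12.03 in fat KO and 12.43, 13.92, 13.51 and 13.35 in fat WT, with a single WT array within the KO range. In skin Srxn1 lay between 10.83 and 11.60 with the genotypes mixed. Sod1 (-0.40), Sod2 (-0.38), Cat (-0.35) and Gpx4 (-0.40) lay on the other side of 0.

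On the negative side, where KO minus WT was lower in skin than in fat, none of the 15 genes with the smallest p passed within a single tissue. They combined a lower mean in skin KO with a higher mean in fat KO. Anxa8, a calcium-dependent phospholipid-binding protein of stratified epithelia, led them. It read 15.56, 16.21, 16.28 and 16.25 in skin KO and 17.16, 16.88 and 16.83 in skin WT. The fat arrays read 12.27, 12.25, 11.74 and 11.02 in KO and 10.82, 10.41, 10.72 and 10.38 in WT. The genotypes were apart in both tissues in opposite directions, and the difference was -2.12 (SE 0.37, unadjusted p = 5.35e-05, limma adjusted p = 0.0918). Its probe (chr14:34913661-34913720, mm9) lies 0.709 Mb from that of Mapk8. Within 10 Mb of Mapk8, 80 genes were compared, of which 2 positive and 6 negative had an unadjusted p below 0.05 (10%, against 12.3% of all genes), with a median of -0.04.

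Gimap1, a GTPase of lymphocyte survival, read 8.34, 8.49, 8.45 and 8.94 in skin KO and 9.30, 9.13 and 9.18 in skin WT. Fat levels were 9.97, 10.24, 9.99 and 10.07 in KO and 9.68, 9.48, 9.35 and 9.71 in WT. Its genotypes did not overlap in either tissue, and the difference was -1.16 (SE 0.21).

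Jak3, the kinase of common gamma chain cytokine receptors, read 7.24, 8.26, 7.71 and 7.70 in skin KO and 8.86, 8.34 and 8.57 in skin WT. Its fat values were 9.69, 9.55, 9.74 and 9.43 in KO and 8.95, 9.26, 9.31 and 9.12 in WT. Again the genotypes did not overlap, with a difference of -1.30 (SE 0.28), and the gene's other probes gave -1.21 and -0.75.

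Alas2, which starts heme synthesis in red cell precursors, was apart by genotype in fat. It read 13.10, 12.98, 12.27 and 12.58 in fat KO and 11.74, 11.92, 11.89 and 11.83 in fat WT, without overlap. In skin it read 9.93, 10.77, 10.34 and 10.42 in KO and 11.31, 11.13 and 10.57 in WT, with overlap, and the difference was -1.53 (SE 0.32). Other negative genes were the interferon-induced nuclear body protein Sp100 (-1.64), the adhesion receptor Pvr (-1.0), the secreted protein C1qtnf9 (-1.22), Rgs3, a regulator of G protein signalling (-1.10, with -0.36 to -0.82 from its 4 other probes), and the guanine nucleotide exchange factor Arhgef15 (-1.06). Sp100 is uncertain, since its other probes gave 0.66 and -0.45. Other probes of Pvr gave -0.96, -0.76 and -0.62, with KO minus WT in fat of 0.64, 0 and -0.44. The remaining named genes were Ushbp1 (-1.24), Oas1e (-1.02), Gm9895 (-0.96), Mtg1 (-0.84), Prcd (-0.83) and Igflr1 (-0.71).

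Endothelial genes stood lower in skin KO and higher in fat KO on average. The 22 compared of 23 listed were all negative, and 11 had an unadjusted p below 0.05, against 7.02% of all genes. Their median difference was -0.78, from a median KO minus WT of -0.47 in skin and 0.32 in fat, where all genes had -0.03 and 0.01. Cldn5, a tight junction protein of vessels, read 11.52, 11.82, 11.35 and 11.65 in skin KO and 12.39, 12.15 and 12.06 in skin WT. In fat Cldn5 read 13.33, 12.97, 12.48 and 12.63 in KO and 12.81, 12.26, 11.76 and 12.24 in WT, so the genotypes were apart in skin and overlapped in fat (difference -1.20, SE 0.32). The transcription factor Sox17 (-0.90), the secreted factor Egfl7 (-0.86) and the receptor Tie1 (-1.0) followed. Over the 32 settings tried, the median of the list stayed between -1.11 and -0.50, and was -0.61 without the 3 arrays that correlated least with their groups. The summed endothelial level was 14.27 to 15.10 on skin KO arrays against 15.27 to 15.42 on skin WT arrays, and 15.81 to 16.42 against 15.52 to 15.94 on fat arrays.

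Of 9 compared erythroid markers 7 were negative, 4 with an unadjusted p below 0.05 (7.02% of all genes), and the median was -0.45, or -1.17 with slide as a block. Hba-a2, an alpha globin gene, read 16.98, 17.18, 16.80 and 17.00 in fat KO and 16.40, 16.10, 16.22 and 16.34 in fat WT, and its genotypes overlapped in skin (difference -1.14). Hba-a1 (-0.97) was also without overlap in fat. The alpha globin genes are near-identical copies whose probes may share signal. The summed erythroid level was 17.97 to 18.48 on fat KO and 17.44 to 17.68 on fat WT arrays, and 15.66 to 16.84 on skin arrays with the genotypes mixed. Lymphocyte markers were negative in 14 of 15 (median -0.41), and 0 of the negative ones had an unadjusted p below 0.05, though 5 did without fat KO 1 and 10 with array weights. The summed lymphocyte level was lowest on skin KO 1 (12.89) in skin and on fat KO 1 (14.41) in fat. Il7r, the interleukin-7 receptor, was positive (0.84). How far the share of blood or vessels in a piece of tissue bears on the other negative genes was not tested.

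Adipocyte genes were also mostly on the negative side. Of 26 compared, 21 were negative, 10 with an unadjusted p below 0.05 (7.02% of all genes). The median was -0.63, from -0.32 in skin and 0.24 in fat, and was -0.29 with array weights. The summed adipocyte level overlapped by genotype in both tissues. It was 18.55 to 19.15 on skin KO and 19.08 to 19.43 on skin WT arrays. In fat it was 19.72 to 20.33 in KO and 19.73 to 20.07 in WT, with a mean of 19.93 in each. Plin1, which coats lipid droplets, read 13.13, 14.21, 13.54 and 14.27 in skin KO and 14.67, 14.42 and 14.31 in skin WT. In fat Plin1 read 15.30, 15.05, 15.02 and 15.22 in KO and 15.03, 14.38, 14.66 and 15.02 in WT with the groups touching, and the difference was -1.05 (SE 0.34).

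Pparg, the master regulator of adipocytes, overlapped in skin and was apart in fat, where it read 13.66, 13.29, 13.36 and 13.94 in KO and 12.98, 12.63, 12.91 and 12.98 in WT (difference -0.83, SE 0.29). Tshr (-0.82) and Adipor2 (-0.62) were the other two with the smallest p. Adiponectin itself (Adipoq) differed by -0.40 (SE 0.35). Lipid droplet and lipolysis genes gave a median of -0.43, with 14 of 18 negative. Of those, 7 had an unadjusted p below 0.05 in limma (7.02% of all genes were negative at that level). Among them were the lipases' regulator G0s2 (-0.67) and hormone-sensitive lipase, Lipe (-0.93). Without the 3 arrays named above, the median was -0.41 for adipocyte genes and -0.17 for lipid droplet genes. Of 18 compared skeletal muscle markers 16 were also negative, 0 of them with an unadjusted p below 0.05 (7.02% of all genes). Their median was -0.43, from -0.62 in skin and -0.16 in fat, and lay between -1.55 and -0.09 over the settings tried. Skin arrays carried skeletal muscle at a summed level of 19.74 to 21.11 in KO and 20.95 to 21.28 in WT, and the part of muscle or fat taken with the skin was not tested.

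**Figure D3:**
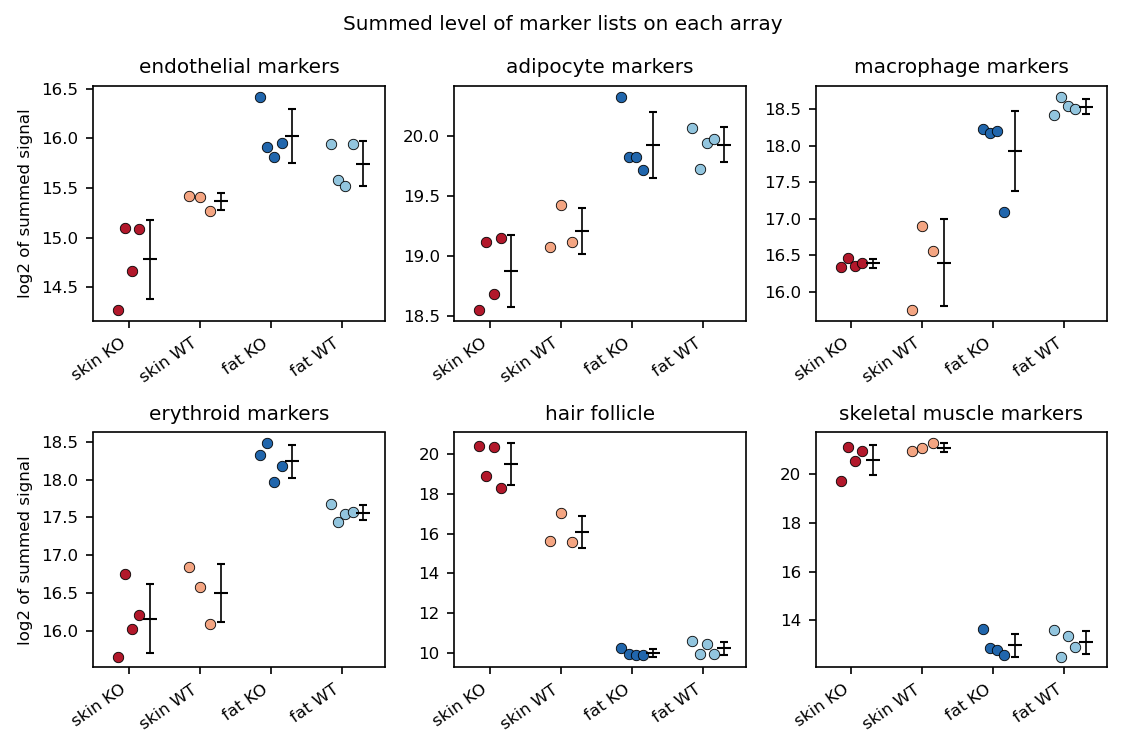
Summed level of 6 marker lists (log2 of the sum of linear values over the list, vertical axis) on each array, by tissue and genotype, where points are arrays and the dash with its bar is the mean ± SD. Hair follicle and endothelial levels are apart by genotype in skin (hair 18.32 to 20.42 in KO against 15.58 to 17.02 in WT), and macrophage and erythroid levels are apart by genotype in fat.

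Proliferation genes were mostly on the positive side. Of 23 compared cell cycle genes 22 were positive and 8 had an unadjusted p below 0.05 (5.25% of all genes), with a median of 0.66 from 0.45 in skin and -0.29 in fat. Mcm3 and Mcm6, subunits of the replicative helicase, differed by 0.93 and 0.81. Mcm3 was at least 9.32 on the skin KO arrays and at most 9.18 on the skin WT arrays (8.93 and 8.95 on the other two), without overlap. Mki67, the proliferation antigen, read 11.90, 10.78, 10.87 and 9.62 in skin KO and 8.54, 9.85 and 10.05 in skin WT, with the lowest KO array inside the WT range (difference 1.64, SE 0.62). Skin KO 1 was the highest array for these genes, and without it the median of the list was 0.32, with 3 members at an unadjusted p below 0.05. With slide as a block the median was 1.42. Mki67 differed by 0.88 without skin KO 1, skin WT 1 and fat KO 4.

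Among genes with opposite, non-overlapping effects, the 5 with the greatest difference were Vsig8, Calml3, Fhl2, Ckap4 and Anxa8. Calml3, a calmodulin-like protein of epithelia, read 15.23, 14.41, 14.36 and 14.17 in skin KO against 13.53, 13.93 and 14.15 in skin WT. On fat arrays the values were 4.33, 6.38, 5.57 and 4.26 in KO against 6.86, 6.44, 8.84 and 8.18 in WT (difference 3.12, SE 0.78). In both tissues the nearest KO and WT arrays were almost at the same level, and 2 of the fat KO arrays were not well above background.

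Fhl2, a LIM-domain cofactor, read 11.11, 9.21, 9.72 and 8.62 in skin KO and 7.37, 8.46 and 8.27 in skin WT. The fat arrays read 7.85, 8.50, 8.89 and 9.11 in KO and 9.37, 9.96, 9.70 and 9.89 in WT, a difference of 2.78 (SE 0.64), or 2.30 without skin KO 1, its highest skin array. Ckap4, an endoplasmic reticulum membrane protein, had a difference of 2.31 (SE 0.66) that was 1.05 without the 3 arrays that correlated least with their groups.

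Gpnmb, a transmembrane glycoprotein of macrophages and melanocytes, was named after its values were seen, as the clearest case of an effect in both tissues. It read 7.30, 7.27, 7.61 and 6.52 in skin KO and 10.02, 11.98 and 11.54 in skin WT (probe chr6:49006386-49006445, mm9). Fat levels were 9.54, 9.98, 10.38 and 9.63 in KO and 12.44, 14.93, 14.86 and 14.83 in WT. KO was lower without overlap in both, by 4.0 and 4.38 (limma adjusted p = 0.0144 within skin and 0.00313 within fat), and it was the single gene called in both tissues. The skin-minus-fat difference was 0.38 (SE 0.77), with a 95% interval from -1.28 to 2.04, so these arrays do not show whether the effects are equal. Without the 3 arrays that correlated least with their groups, the limma adjusted p was 0.0851 within skin and 0.0175 within fat. On skin KO 1 the probe was not well above background. The gene's other probe was dimmer, with means of 4.62 in KO and 5.14 in WT in skin. In fat the means of that probe were 4.95 in KO and 5.87 in WT.

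**Figure D4:**
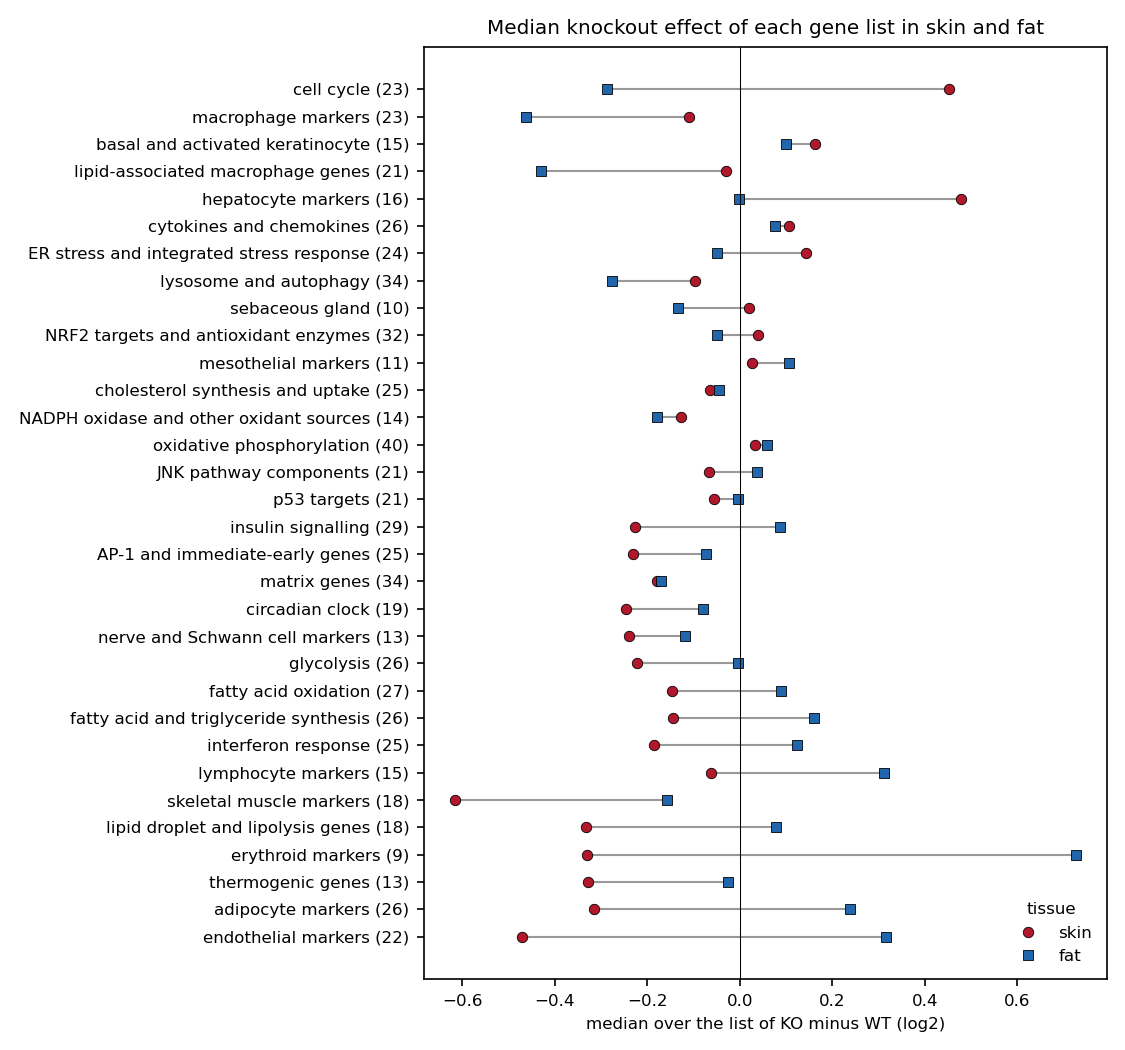
Median KO minus WT (log2, horizontal axis) of gene lists with at least 9 compared genes, for skin (circle) and fat (square), ordered by the median skin-minus-fat difference of the list. Cell cycle and macrophage lists (medians 0.66 and 0.59) stand at one end, and endothelial and adipocyte lists (-0.78 and -0.63) at the other.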

How the data were processed

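RNA levels were measured on 15 arrays of skin and epididymal fat from JNK1 Knock-out and wild type mice, grouped by the titles in the labels. The authors deposited a table of log2 values, on which all contrasts were computed. Agilent Feature Extraction 10.7.3.1 and limma are named in the submitters' processing notes, and the normalization and centring of the table are not given in the sources used here. Per the file headers, the scanner files hold spot intensity with the background subtracted. They supplied the calls of signals well above background and the alternative scalings. The number of arrays limits the precision.

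Of the probes of a gene name (41174 without controls, 8944 gene names with more than 1), that with the highest mean over the 15 arrays represents the gene. Accessions of 27816 probes matched RefSeq, and 697 of the 12683 compared rows had no gene symbol and are not named. Probe positions are those of the files (mm9), and their place in the transcript was not analysed here. Group means were fitted with limma 3.58.1 in R 4.3.3 (11 residual degrees of freedom, moderated errors, two-sided, Benjamini-Hochberg over 12683 genes), and an adjusted p below 0.05 was called. The fit was tested on simulated data. A list is described by counts and its median, with no test. Its summed level is log2 of the summed linear values.

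The members, lists and rules were chosen with earlier results of these data known. Genes named were the JNK genes, the 15 with the smallest p in each direction, up to 4 members of a list with the smallest p, and the 5 with the greatest difference among opposite, non-overlapping effects. Gpnmb, Jun, Fos, Sod1, Sod2, Cat, Gpx4, Sox9, Gata3, Adipoq and the tissue markers were named beside that rule, after values were seen. Alternatives were other scalings, filters, probe rules, slide and replicate blocks, array weights, all 21 arrays in the fit and arrays left out.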

Additional observations from a re-analysis of the deposited data

Results flagged for a closer look

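An array was singled out where, in a group of 4, its distance to the nearest array took more of the range of the group than Dixon's 95% limit allows. Chance does this in about 1 in 20 groups, and it was seen in 15 of 249 groups over 83 named genes (6.02%). Skin WT, with 3 arrays, was not examined.

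Skin KO 1 stood apart for Anxa8 (share of the range 0.903, at 15.56 where the others were 16.21 to 16.28), for Map3k4 (0.926, low), and for Spp1 (0.83, high) and Pdia3 (0.881, high). Without that array Anxa8 was still lower in skin KO than on any WT array. Skin KO 3 stood apart for Mapk8ip3 (0.877, high at 10.77) and for Mapk10 (0.86, low), which was near background.

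In fat, KO 4 was the low array for Cd9 (0.861, at 11.70 against 12.38 to 12.49) and Clec4n (0.884), and the high one for Tshr (0.897). The other Cd9 arrays of fat KO were also below every WT array. Fat KO 1 was low for Mki67 (0.905) and high for Rgs3 (0.902). Fat WT 1 was low for Vsig8 (0.852, against 8.35 to 8.55), Sptlc3 (0.952, at 5.72 against 7.12 to 7.19) and Slc24a5 (0.852). Vsig8 in fat thus owed its smallest gap between genotypes to that WT array. Fat WT 2 was high for Mapk9 (0.86, at 8.33 against 7.83 to 7.90).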

How the results depend on the processing

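The count of genes called for the skin-minus-fat difference was 0 (limma, 1556 at an unadjusted p below 0.05), and it was again 0 under every scaling, filter and probe rule tried. It was 13 with all 21 arrays in the fit, 114 with array weights, 1 with slide as a fixed block and 1 without skin KO 1, skin WT 1 and fat KO 4, an alternative chosen after seeing the data. Leaving out single arrays gave 0 to 15 (15 without skin KO 4, 8 without skin WT 2, 1 without fat KO 4). The gene called with slide as a block was Tmem260 (-5.45, named after its value was seen), where fat KO 1 read 12.66. That fit placed the change in skin (KO minus WT of -5.34), although every skin array lay between 6.86 and 7.29, so the call reflects the single value on fat KO 1. Without the block its difference was -1.29 (SE 1.35). Scanner values scaled to the 75th percentile moved the median of all genes to -0.13 and the positive share of genes at an unadjusted p below 0.05 from 42.8% to 26.6%. A replicate block gave 0 calls in each form, with 1257, 1363 and 1740 genes at an unadjusted p below 0.05. Same-numbered arrays did not deviate together (7 pairs, r from -0.0859 to 0.0663, 1 best with its own number). Skin and fat of a mouse need not deviate together, so whether the numbers pair the samples stays unknown. The cause of these changes was not tested. Every array was scanned on 1 day, so the scan day alternative was not run. Genes near background in fat, the hair follicle genes among them, have little precision there.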

Other observations

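Of 14 melanocyte genes on the array, 13 had a positive difference without the background condition, 10 with an unadjusted p below 0.05 (1085 positive of all 27561 gene names). Only 5 met the condition in both tissues (median 0.99). Among these, Slc24a5 met it in skin through KO alone, and Gpnmb fell in skin KO. Slc24a5, a pigment granule exchanger, read 8.14, 6.78, 7.54 and 5.89 in skin KO and was not well above background on any skin WT array. By the bound described for Dio3, on the deposited values, its skin KO mean was at least 3.58-fold that of WT. Mlana, a melanosome protein, read 12.17, 10.97, 11.81 and 10.31 in skin KO and 9.93, 9.63 and 9.85 in skin WT, without overlap, and its difference was 1.22 (SE 0.51). The arrays of skin KO stood in the same order for Mlana as for Slc24a5, with KO 1 and KO 3 highest. The summed melanocyte level in fat averaged 10.96 on KO arrays (SD 0.33) and 14.38 on WT arrays (SD 1.12), and it contains Gpnmb. Gpnmb alone averaged 9.88 on fat KO and 14.27 on fat WT arrays, so the summed level in WT was mostly Gpnmb. Across the 14 genes the median KO minus WT in fat was -0.06, so the gap in summed level does not describe the list as a whole.

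Epidermal genes were few among those compared, since 8 of 34 keratinocyte differentiation genes were well above background in fat, and their median was 0.29. Sptlc3, a subunit of the enzyme that starts sphingolipid synthesis, read 4.13, 4.86, 5.76 and 4.92 in fat KO and 5.72, 7.12, 7.19 and 7.14 in fat WT, and differed by 1.91 (SE 0.53), with a range from 0.86 to 3.05 over the settings tried. It was well above background on 2 of the 4 fat KO arrays. S100a9, an alarmin of neutrophils and stressed keratinocytes, was higher in KO without overlap in both tissues. It read 18.50, 14.52, 14.26 and 12.54 in skin KO, 10.97, 10.74 and 10.56 in skin WT, 12.96, 11.01, 12.02 and 10.36 in fat KO and 9.95, 9.90, 9.96 and 10.20 in fat WT. The skin and fat effects differed by 2.61 (SE 1.33, unadjusted p = 0.0695), by 1.43 without skin KO 1 and by 1.13 without skin KO 1, skin WT 1 and fat KO 4.

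Matrix genes had a median of -0.13, with 4 positive and 0 negative members at an unadjusted p below 0.05 (5.25% and 7.02% of all genes), and the median was 0.14 without skin KO 1, skin WT 1 and fat KO 4. These were the proteoglycan Bgn (1.09), the metalloproteinase Mmp3 (1.64), its inhibitor Timp1 (1.91, and 1.46 without skin KO 1, with a range from 1.0 to 2.74 over the settings) and periostin, Postn (2.36, and 1.16 without skin KO 1, skin WT 1 and fat KO 4). Genes of the ER stress response were positive in 19 of 24 (median 0.20, and 0.03 on scanner values scaled to the 75th percentile), among them the chaperone genes Hspa5 (0.75), Dnajc3 (0.76) and Pdia3 (0.66). Interferon response genes were negative in 19 of 25 (median -0.36), among them the immunoproteasome subunit Psmb9 (-0.67). Fatty acid oxidation genes were negative in 23 of 27 (median -0.27), with Eci1 at -0.81. Markers of epididymis and testis summed to 12.04, 13.16, 10.48 and 9.39 on the fat KO arrays and to 15.20, 9.37, 15.02 and 10.25 on the fat WT arrays, and their part in the fat values was not tested.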
